A study of Mus musculus with 35 samples.

Results

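Kruppel-like factors other than Klf2 were followed across resident and circulating CD8+ T cells and the whole tissues around them. The genes were Klf3, Klf4, Klf6, Klf7, Klf9, Klf10 and Klf13, which are 7 of 20886 genes named on the array and 7 of the 17 Kruppel-like factor genes that had a probe on it. They were chosen because of the strong rise of Klf4 in lung resident memory cells (Trm) over effector memory cells of the blood (Tem), so that contrast and every other use of those arrays for Klf4 are given as a description without a test. Each of the 7 genes had 1 probe. Of these, 6 passed the filter on dim probes and Klf9 did not.

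The mice were healthy wild type C57BL/6 females, 8 to 16 weeks old, with no treatment named. Trm were taken from dissociated liver (5 arrays), lung (6) and small intestine (6) as CD8b+ CD103+ cells by successive magnetic selections, and Tem (6) from blood as CD8b+ cells left after a further depletion step. Whole liver, lung, intestine and peripheral blood mononuclear cells (PBMC), with 3 arrays each, were not sorted and served as a control for other cells of the organ. The labels say that blood came from the same animals but do not tie arrays to animals, so p-values cover only the spread among arrays, part of which may be technical. Residency was defined by CD103 alone, and the RNA was amplified before labelling with 1 dye.

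Kruppel-like factors are zinc finger proteins that bind GC-rich boxes and CACCC boxes through a conserved trio of fingers, and differ mainly in the part that recruits coactivators or corepressors. In lymphocytes the best known member is Klf2, which keeps T cells quiescent and switches on S1pr1, the gene for a receptor of tissue egress. Klf4 restrains proliferation, including that of CD8+ T cells, and is also strongly expressed in barrier epithelium and monocytes. Klf3 recruits the corepressor CtBP, Klf13 is a late activator of the chemokine gene Ccl5 in T cells, Klf10 is induced by TGF-beta, Klf9 by glucocorticoids, and Klf6 by growth factors and stress. Klf4, Klf6 and Klf10 belong to the genes that cells switch on within a short time of being stimulated.

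Levels are log2 intensities relative to a reference signal of the same array, so 0 is that reference. Sorted cells compared with each other use a sorted-cell scale, and comparisons with whole tissue use an all-array scale. A gene is called at a limma adjusted p under 0.05 over all genes of a fit (8620 genes for sorted cells, 10635 for all arrays). Between 12.2% and 35.5% of probes were well above background on the sorted-cell arrays. The share ran from 7.80% on whole PBMC 1 to 64.6% on whole liver 2, which stood apart. Of 10 T cell markers with a probe, 9 gave signal above background on all arrays of each sorted group; Itgae, which encodes CD103, had no matched probe. Liver Trm arrays differed in their hepatocyte signal: the summed level of 10 hepatocyte markers was 1.98 and 1.74 times the reference on liver Trm 1 and 2 but 13.8, 11.4 and 5.36 on liver Trm 3, 5 and 6, against 13.4 to 14.3 in whole liver. In bulk RNA, fewer cells of a type and less RNA per cell cannot be told apart.

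The promoters of Klf4, Klf3 and Klf13 are shown because these were the members with a called difference in the fit of sorted cells. Each sequence is the 250 bases before the RefSeq start site on GRCm38.p6, read along the gene. Capitals mark matches on either strand. The GC box was searched as GGGCGG. The CACCC box was searched with one more leading base, as the letters CCACCC. The core of a cyclic AMP response element was searched as TGACG. Klf4 lies at chr4:55532476-55532725 on the minus strand, Klf3 at chr5:64803271-64803520 on the plus strand, and Klf13 at chr7:63938916-63939165 on the minus strand.
Klf4: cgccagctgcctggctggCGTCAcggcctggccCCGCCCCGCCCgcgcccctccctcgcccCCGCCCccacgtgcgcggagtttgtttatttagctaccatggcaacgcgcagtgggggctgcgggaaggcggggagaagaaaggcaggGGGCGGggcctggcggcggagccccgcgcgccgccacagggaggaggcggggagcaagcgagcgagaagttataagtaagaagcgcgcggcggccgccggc
Klf3: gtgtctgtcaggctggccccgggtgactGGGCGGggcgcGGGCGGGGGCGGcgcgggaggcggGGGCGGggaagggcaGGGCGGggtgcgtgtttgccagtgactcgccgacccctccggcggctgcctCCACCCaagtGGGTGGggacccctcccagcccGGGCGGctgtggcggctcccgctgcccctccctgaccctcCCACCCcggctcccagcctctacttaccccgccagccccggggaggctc
Klf13: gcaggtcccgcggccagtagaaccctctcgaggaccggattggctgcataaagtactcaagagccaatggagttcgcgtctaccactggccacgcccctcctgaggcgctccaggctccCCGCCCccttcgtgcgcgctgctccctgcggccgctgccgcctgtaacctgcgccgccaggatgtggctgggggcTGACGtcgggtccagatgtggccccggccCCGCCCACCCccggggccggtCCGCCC

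Boxes that Kruppel-like factors bind occurred in each of these 3 promoters. Klf3 held 6 GC boxes and 3 CACCC boxes, Klf4 held 4 GC boxes and no CACCC box, and Klf13 held 3 GC boxes and 1 CACCC box, the last overlapping a GC box. Of the members not shown, Klf7 held 1 GC box and 3 CACCC boxes, Klf6 held 1 GC box and no CACCC box, and Klf9 held neither. Among 32851 promoter entries of the same length, 32.7% held at least 1 GC box and 28.1% at least 1 CACCC box. These shares were not taken over entries of like GC content. TGACG, which 17.8% of entries held, occurred in Klf4, Klf13 and Klf9. Of the 7 genes, 6 had an entry. None of those 6 held the full element TGACGTCA (1.55% of entries), a full glucocorticoid response element (0.00913%), a CArG box (1.47%) or an NF-kappaB site (3.9%). The promoters shown were GC-rich (74% for Klf4, 78.4% for Klf3 and 71.6% for Klf13, against a median of 52.4% over all entries). A match is a description of the letters and shows no binding.

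Klf4 was well above background on 6 of 6 lung Trm arrays, 5 of 6 intestine Trm arrays, 1 of 5 liver Trm arrays and 0 of 6 blood Tem arrays. On the sorted-cell scale, its levels in lung Trm ran from -3.72 to -2.05 with a median of -3.37. In intestine Trm they ran from -4.99 to -2.18 with a median of -3.85. The 5 liver Trm arrays read -5.03, -3.53, -5.26, -7.03 and -6.92 (arrays 1, 2, 3, 5 and 6). Blood Tem read from -8.96 to -7.47 with a median of -7.94. Every Trm array of each organ lay above every blood Tem array. For liver Trm this rests mostly on readings not well above background. Probes never above background had a median of -7.13 in liver Trm and -8.43 in blood Tem on this scale. On the all-array scale liver Trm 5 read -7.90 and the highest blood Tem array -7.92. Lung and intestine Trm overlapped, and liver Trm 2 lay within the range of both. The mean level was -3.20 ± 0.61 (SD, n = 6) in lung Trm, -3.73 ± 1.03 (n = 6) in intestine Trm, -5.56 ± 1.46 (n = 5) in liver Trm and -8.06 ± 0.52 (n = 6) in blood Tem.

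**Figure D1:**
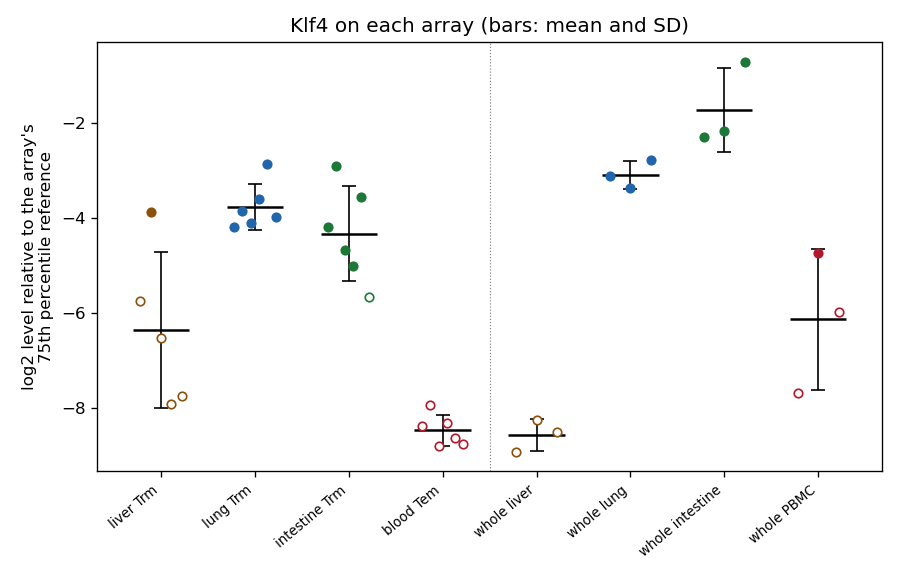
Klf4 on each of the 35 arrays, as the log2 level relative to the array's reference on the all-array scale (vertical axis), by group (horizontal axis). Filled points were well above background and open points were not; horizontal lines and bars are the group mean and SD. All lung Trm points are filled and all blood Tem and whole liver points are open, and whole intestine has the highest mean, -1.73.

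For lung and intestine Trm, the size of the Klf4 difference from blood Tem is a lower bound, because Tem gave no signal above background. As a description of the contrast by which the gene was chosen, Klf4 exceeded blood Tem in lung Trm by at least 9.26-fold (measured log2 difference 4.86; 6 of 6 shared slides, 4.12 to 6.23), a contrast in which 3.13% of genes were called. It was at least 6.40-fold higher in intestine Trm (4.32, 6 of 6 slides). In liver Trm the measured difference was 2.50, on 5 of 5 slides, and 1.65 without liver Trm 1 and 2. No bound is given for liver Trm, because Klf4 was well above background on only 1 of 5 arrays there. These bounds set the mean of the Trm arrays against the lowest signal that counted as well above background on the Tem arrays. They apply to the scaling used here. Over the other settings the measured difference ran from 2.65 to 4.86 in lung Trm and from 2.37 to 4.32 in intestine Trm. Probes never above background were themselves higher than in blood Tem by a median of 1.30 in liver Trm, 0.70 in intestine Trm and 0.22 in lung Trm.

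Between Trm populations, Klf4 was tested for intestine against liver only, where it was higher in intestine Trm by 1.82 (SE 0.55, adjusted p = 0.0313), on 5 of 5 shared slides. It was the member called of 6 tested in that comparison, in which 11.7% of all genes were called and 8.87% were higher. The call depended on single arrays: it was lost without liver Trm 3, 5 or 6 or intestine Trm 1, 2 or 5, and with no filter on dim probes, and the difference was 0.50, not called, after normexp background correction. Without liver Trm 1 and 2 the difference was 2.67. Lung Trm exceeded liver Trm by 2.36 on 5 of 5 slides (3.21 without liver Trm 1 and 2) and intestine Trm by 0.53, on 4 of 6 slides, with no test.

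Klf4 was lower in intestine Trm than in the surrounding organ, and read higher in liver Trm than in whole liver, where most arrays gave no signal above background. On the all-array scale, whole intestine read -2.31, -2.17 and -0.73, above all 6 intestine Trm arrays. Intestine Trm were lower than whole intestine by 6.06-fold (log2 difference -2.60, SE 0.64, adjusted p = 0.00167). Whole liver read -8.91, -8.25 and -8.49, none well above background and all below the liver Trm arrays. The measured difference of liver Trm from whole liver was 2.20 (SE 0.66, adjusted p = 0.00929). Without liver Trm 1 and 2 that difference was 1.17 and not called. Probes never above background had a median of -7.97 in liver Trm and -8.53 in whole liver. Klf4 read -7.90 and -7.74 on liver Trm 5 and 6. Whole lung read -3.13, -3.38 and -2.79 and overlapped lung Trm (-4.20 to -2.87), whose mean was lower by 0.68, with no test. The difference between organs was itself tested: intestine Trm relative to whole intestine stood 4.79 below liver Trm relative to whole liver (SE 0.92, adjusted p = 2.2e-04). Its size is not settled, since Klf4 was above background on 1 of 5 liver Trm arrays and on no whole liver array. The direction in liver likewise rests mostly on readings not well above background. That interaction was called under 12 of 12 settings and with any of 17 arrays left out, between -5.20 and -3.77.

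Signal from other cells of the organ moved with Klf4 in some groups and not in others. In lung Trm, 7 of 8 lung epithelial markers with a probe were well above background on some array, with Cldn18 on none. Their summed level ran from 0.156 to 8.37 times the reference, against 6.28 to 8.36 in whole lung and 0.104 to 0.233 in blood Tem. On lung Trm 6, where the sum was 0.156 and within the blood Tem range, Klf4 read -3.99 on the all-array scale, and on lung Trm 1, where it was 8.37, Klf4 read -4.20. All blood Tem arrays were at -7.92 or below. Of 11 monocyte, macrophage and dendritic markers, 7 were above background on some lung Trm array, with Ccr2, Clec9a, Fcgr1 and Siglec1 on none. Their sum was 0.203 to 3.90 in lung Trm, 0.824 to 0.937 in whole lung and 0.078 to 0.291 in blood Tem. On lung Trm 3, with a sum of 0.203 inside the blood Tem range, Klf4 read -4.12. No lung Trm array was within the blood Tem range for both lists: the epithelial sum was 4.53 on lung Trm 3, and the monocyte, macrophage and dendritic sum was 1.18 on lung Trm 6. The part of these cells in the lung Klf4 level was not tested.

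In intestine Trm, 9 of 11 gut epithelial markers were above background on some array, with Alpi and Muc2 on none, and their sum was 0.481 to 3.31 against 10.6 to 25.2 in whole intestine and 0.044 to 0.098 in blood Tem. The array with the highest sum, intestine Trm 2, had the highest Klf4 level of the group (-2.92), and the array with the lowest sum, intestine Trm 6, had the lowest (-5.65). Intestine Trm 2 also held the most fibroblast and smooth muscle signal, 3.59 against 0.086 to 1.09 on the other 5 arrays. In liver Trm the order was the other way for hepatocyte markers, since Klf4 was highest on liver Trm 2, which had the lowest hepatocyte sum. The part of epithelial and stromal signal in the intestine Klf4 level was not tested.

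**Figure D2:**
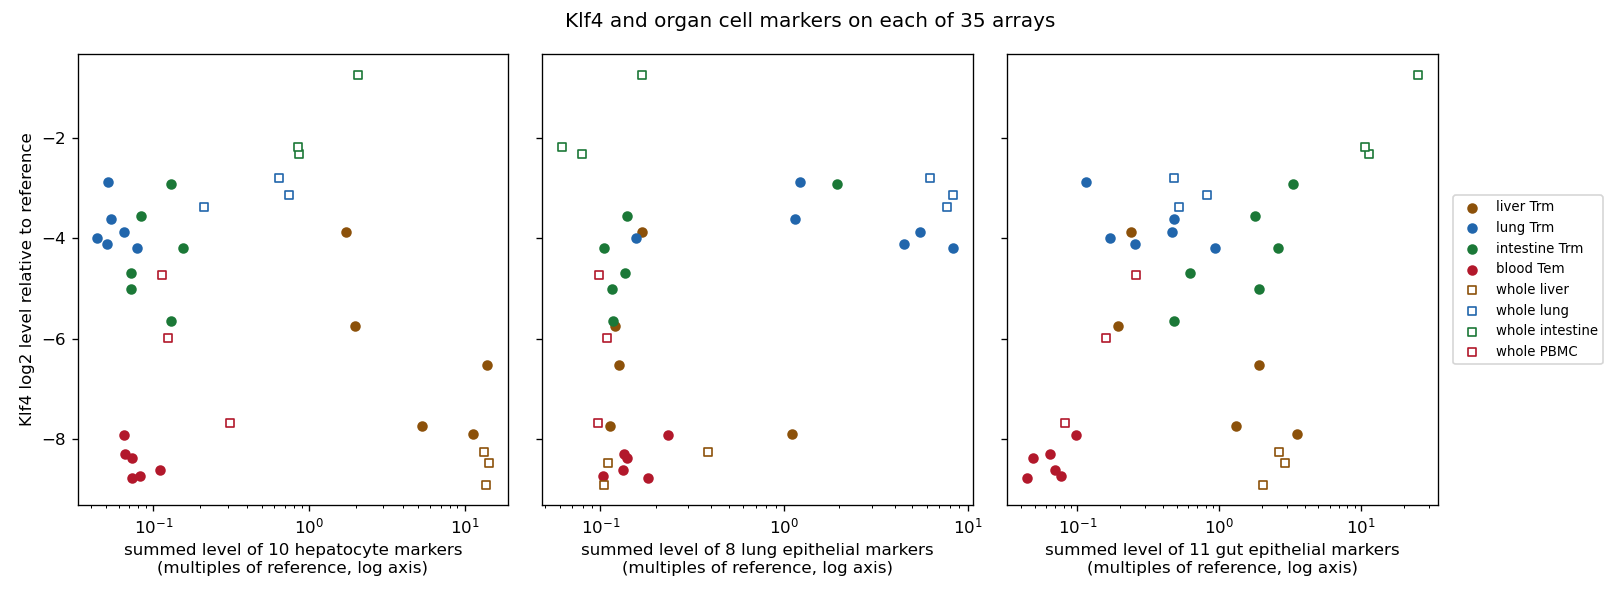
Klf4 log2 level on the all-array scale (vertical axis) against the summed level of marker genes of other cells of the organ, in multiples of the array's reference on a log axis (horizontal axis); filled circles are sorted cells and open squares whole tissues. Lung Trm have lung epithelial sums from 0.156 to 8.37 and Klf4 levels from -4.20 to -2.87, and the highest blood Tem array is at -7.92.

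Klf3, which recruits the corepressor CtBP, was lower in Trm than in Tem in both organs where it was tested. On the sorted-cell scale, blood Tem ran from -3.31 to -1.05 with a median of -1.93. Lung Trm ran from -2.97 to -1.63 (median -2.42) and intestine Trm from -4.17 to -2.97 (median -3.76). Liver Trm read -2.28, -2.03, -3.68, -3.77 and -3.68. Intestine Trm overlapped blood Tem on the side of its lowest array, and liver Trm fell into arrays 1 and 2 near the Tem median and arrays 3, 5 and 6 below the Tem range. Liver Trm 3, 5 and 6 were the arrays with the higher hepatocyte sums (5.36 to 13.8), and the lowest sum, 1.74, was on liver Trm 2. Whole liver had a Klf3 mean of -5.57 on the all-array scale. The part of hepatocyte signal in the liver difference was not tested. The fall in intestine Trm was 3.19-fold (-1.68, SE 0.37, adjusted p = 0.00292) and was seen on 5 of 6 slides. It was called under 10 of 10 settings and with any of 12 arrays left out. In liver Trm the difference was -1.11 (SE 0.38, adjusted p = 0.0266), lower on 4 of 5 slides. That call was lost without liver Trm 3, 5 or 6 or blood Tem 3 or 6 and under quantile normalization, normexp or the deposited values (-0.89 to -0.67), and the difference was -1.73 without liver Trm 1 and 2.

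Klf3 was also lower in intestine Trm than in lung Trm, by 1.30 on the log2 scale (difference -1.30, SE 0.37, adjusted p = 0.0272), on 6 of 6 slides. It was the member called of 5 tested in that comparison, where 9.54% of all genes were called and 4.26% were lower. The call was lost without lung Trm 2 or 3 or intestine Trm 1 and with no filter on dim probes. It was also lost with array number as a block in the fit. Lung Trm differed from blood Tem by -0.38, with no test.

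Klf13, the activator of Ccl5, was likewise lower in liver and intestine Trm than in Tem. It was well above background on 6 of 6 blood Tem and 6 of 6 lung Trm arrays but on 3 of 6 intestine and 2 of 5 liver Trm arrays. Blood Tem ran from -4.78 to -4.03 with a median of -4.35. Lung Trm ran from -5.72 to -4.55 (median -5.03) and intestine Trm from -6.01 to -4.28 (median -5.49). Liver Trm read -4.41, -4.88, -5.36, -5.48 and -6.57, again highest on arrays 1 and 2, which had the lowest hepatocyte sums. The part of hepatocyte signal in the liver Klf13 difference was not tested. The groups overlapped in each comparison. Compared with blood Tem, the difference was -1.003 in liver Trm (SE 0.35, adjusted p = 0.0272; lower on 4 of 5 slides) and -1.04 in intestine Trm (SE 0.33, adjusted p = 0.0325; lower on 5 of 6 slides).

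Both Klf13 calls were fragile. After normexp background correction the liver difference was -0.03 and the intestine difference -0.42, neither called. The liver call was lost without liver Trm 3, 5 or 6. The intestine call was lost without intestine Trm 2, 4 or 6 or blood Tem 3, 4 or 6, with no filter, and with array number as a block in the fit. Without liver Trm 1 and 2, which leaves the arrays with the higher hepatocyte sums, the liver difference was -1.47. Lung Trm lay below blood Tem by 0.72 on 6 of 6 slides, with no test. Of 9 T cell markers tested against blood Tem, 3 were lower and 6 not called in liver Trm, and 2 were lower and 7 not called in intestine Trm (3 to 9 and 2 to 3 lower under the other scalings). Their summed level overlapped between groups, at 2.97 to 8.01 in liver Trm, 3.45 to 9.02 in intestine Trm and 4.45 to 8.53 in lung Trm, against 7.34 to 12.9 in blood Tem. The part of these sums in the Klf3 and Klf13 differences was not tested.

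**Figure D3:**
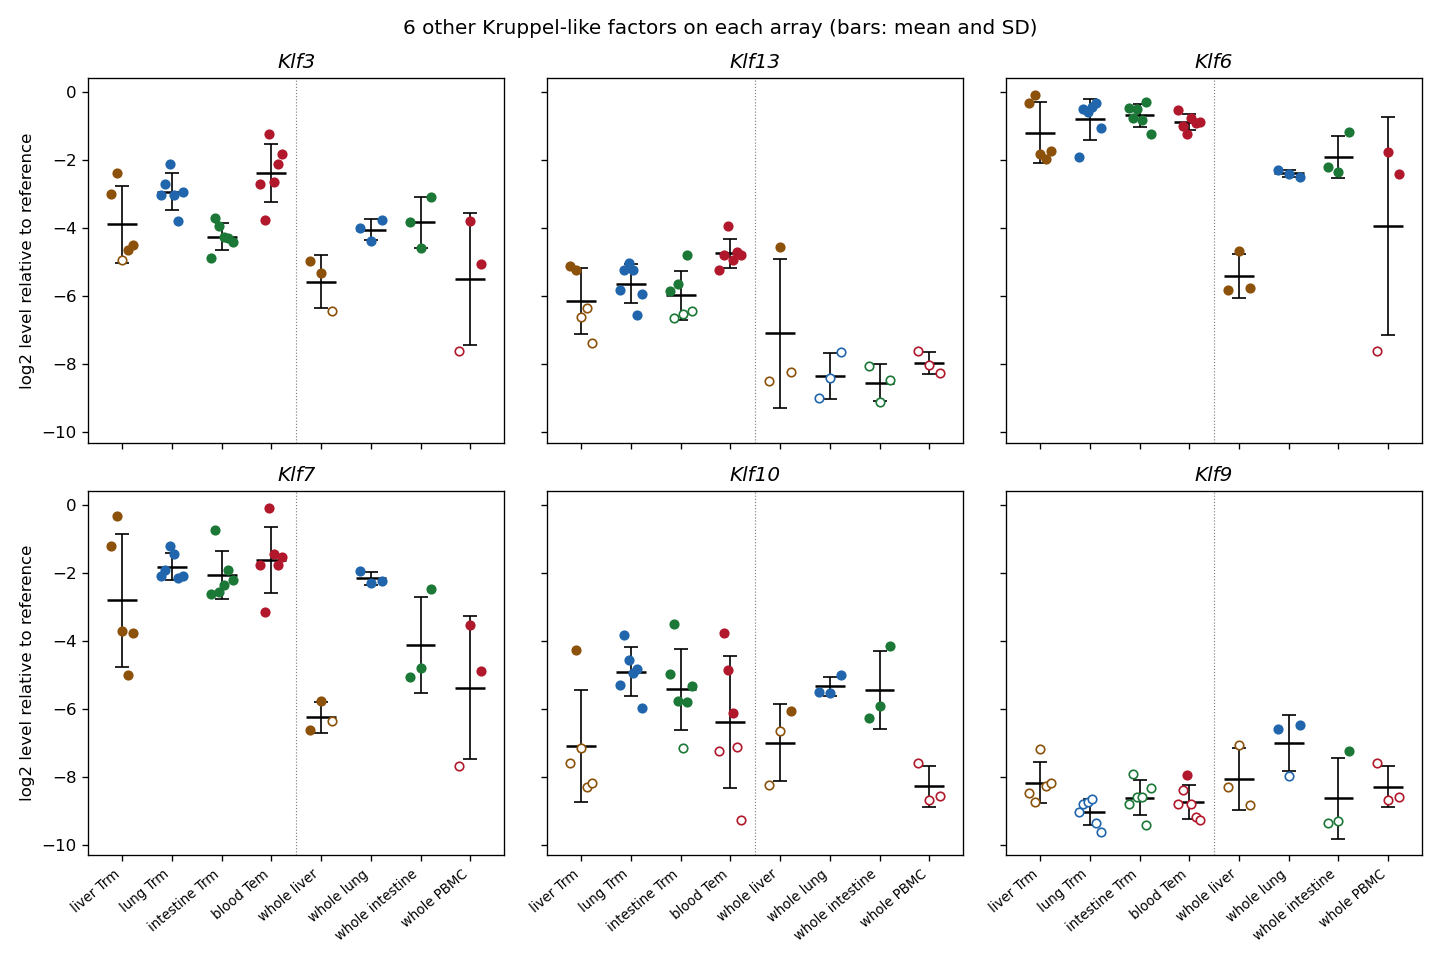
The other 6 factors on each array, as the log2 level relative to the array's reference on the all-array scale (vertical axis), by group (horizontal axis); filled points were well above background, open points were not, and lines and bars are mean and SD. Klf13 points of whole lung, whole intestine and whole PBMC are all open, and Klf9 points are open on all but 4 arrays.

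No tested difference of Klf6 or Klf7 on the sorted-cell scale was called with all arrays. Klf6 ran from -1.42 to 0.51 in lung Trm (median -0.04), from -0.59 to 0.26 in intestine Trm (median -0.04) and from -1.42 to -0.08 in blood Tem (median -0.38). Liver Trm read 0.38, 0.25, -0.57, -1.11 and -0.91. The 4 groups overlapped, and the tested differences were 0.09 to 0.40 (adjusted p at least 0.402). Klf7, a factor best known from neurons, ran from -1.63 to -0.74 in lung Trm (median -1.37), from -2.12 to 0.00 in intestine Trm (median -1.69) and from -2.70 to -0.26 in blood Tem (median -1.10). Liver Trm spread widest, at -0.50, 0.00, -2.46, -4.15 and -2.96. Without liver Trm 1 and 2, Klf7 in liver Trm differed from blood Tem by -1.97, and it was higher by 1.94 in lung Trm and 1.71 in intestine Trm than in liver Trm, all called; those arrays were left out after the levels were seen.

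Klf10, the TGF-beta inducible member, was above background on 6 of 6 lung Trm, 5 of 6 intestine Trm, 3 of 6 blood Tem and 1 of 5 liver Trm arrays. Lung Trm ran from -5.38 to -3.33 (median -4.24), intestine Trm from -6.63 to -2.77 (median -5.00) and blood Tem from -8.49 to -3.31 (median -6.16). Liver Trm read -6.89, -3.93, -5.89, -7.42 and -7.37. Blood Tem spanned the range of the other groups. Lung Trm lay above liver Trm on 5 of 5 slides, by 1.96 (SE 0.77, adjusted p = 0.0698), which was not called. Without liver Trm 2 that difference was 2.55 and called. It was also called under 6 of 11 other settings, among them quantile normalization (2.80), scaling over all probes (2.41) and no filter. In the fit of all 35 arrays liver Trm differed from lung Trm by -2.19 (adjusted p = 0.0432), which was called. Lung Trm exceeded blood Tem by 1.66, with no test. Klf9 was above background on 1 blood Tem array, 2 whole lung arrays and 1 whole intestine array, and no level is compared for it.

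Counted over members, the differences among sorted cells were few. Against blood Tem, 2 of 5 tested members were lower in liver Trm, where 40.3% of all genes were called (25.4% lower), and 2 of 5 were lower in intestine Trm, where 17.7% were called (9.59% lower); the 2 comparisons share the Tem arrays. Between lung and liver Trm limma called 0 of 5, with 1 at an unadjusted p under 0.05, against 17.8% of genes. The liver count does not stand out from that background. The median member difference was -0.55 in liver against -0.28 over all genes, and 0.08 in intestine against -0.03; these medians also include Klf4.

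**Figure D4:**
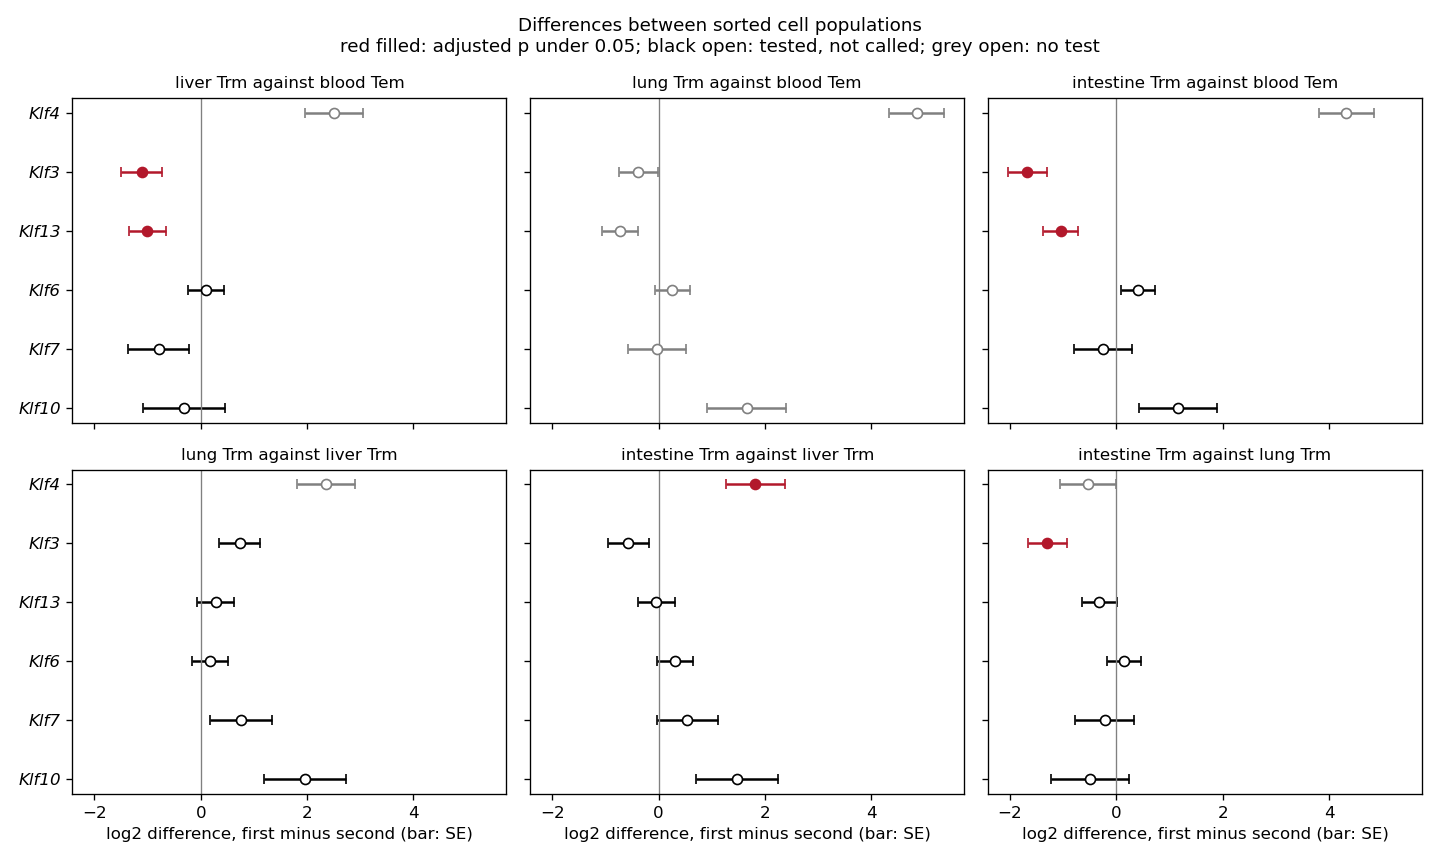
Log2 differences of the members between sorted cell groups (horizontal axis, bars SE); filled red points were called, open black points were tested and not called, and grey points have no test. Klf3 and Klf13 lie below 0 for liver and intestine Trm against blood Tem, and Klf4 lies at 4.86 for lung Trm against blood Tem.

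The members were also compared between sorted cells and their own organ or blood. Sorted cells and whole tissues never shared a slide, so slide and group cannot be told apart here. In liver, 4 of 6 members were called and all 4 were higher in Trm, where 32.3% of genes were called and 8.53% were higher. Klf6 differed most: whole liver read -5.81, -4.67 and -5.76 on the all-array scale and all liver Trm arrays lay above, by 18.6-fold in the mean (4.22, SE 0.71, adjusted p = 1.5e-05), called under 12 of 12 settings. Klf7 was higher by 3.45 (SE 0.80, adjusted p = 8.7e-04; 2.09 and still called without liver Trm 1 and 2). Klf3 was higher by 1.69 (SE 0.63, adjusted p = 0.0372), a call lost without liver Trm 1 or 2 or whole liver 2 or 3 or with no filter. Klf13 was not called in liver (0.96, adjusted p = 0.266), and was 2.23 higher and called without whole liver 2 (1.32 and called under quantile normalization).

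In lung, 1 of 5 members was called, Klf13, against 41.6% of genes (15.7% higher). Whole lung read -8.99, -8.42 and -7.64 for Klf13, none well above background, and lung Trm were at least 2.83-fold higher (2.72, SE 0.60, adjusted p = 3.3e-04). That bound applies to the scaling used here. Over the other settings the measured difference was 1.05 to 2.92, called under 9 of 9. In intestine, 3 of 6 were called, against 31.8% of genes (11.7% higher and 20.1% lower). Klf13 was higher in Trm (measured difference 2.56, SE 0.60, adjusted p = 9.4e-04), with all 3 whole intestine arrays below background. No bound is given, because it was well above background on 3 of 6 intestine Trm arrays. Klf7 was higher by 2.05 (SE 0.77, adjusted p = 0.0400), a call lost without intestine Trm 2 or 5 or whole intestine 1 or 2, and under normexp or no filter. Klf4 was the lower one. T cell marker sums were 0.098 to 0.356 in the whole organs.

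In blood, 4 of 5 tested members were higher in Tem than in whole PBMC, where 55.2% of genes were called (43.9% higher). Whole PBMC 1 decided most of this, with no member above background on it. Klf13 was at least 2.39-fold higher in Tem (3.23, SE 0.60, adjusted p = 5.8e-05), and 2.65 higher and still called without whole PBMC 1. The bound applies to the scaling used here. Over the other settings the measured Klf13 difference was 1.13 to 3.43, called under 11 of 11. Klf3 (3.12), Klf6 (3.05) and Klf7 (3.76) were called, and without whole PBMC 1 they were 1.30, 0.46 and 1.85 higher and not called. Klf4 ran the other way: whole PBMC read -7.68, -4.73 and -5.99, above background on 1 array, and the difference of Tem from it was -2.33 (-3.85 without whole PBMC 1), with no test.

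**Figure D5:**
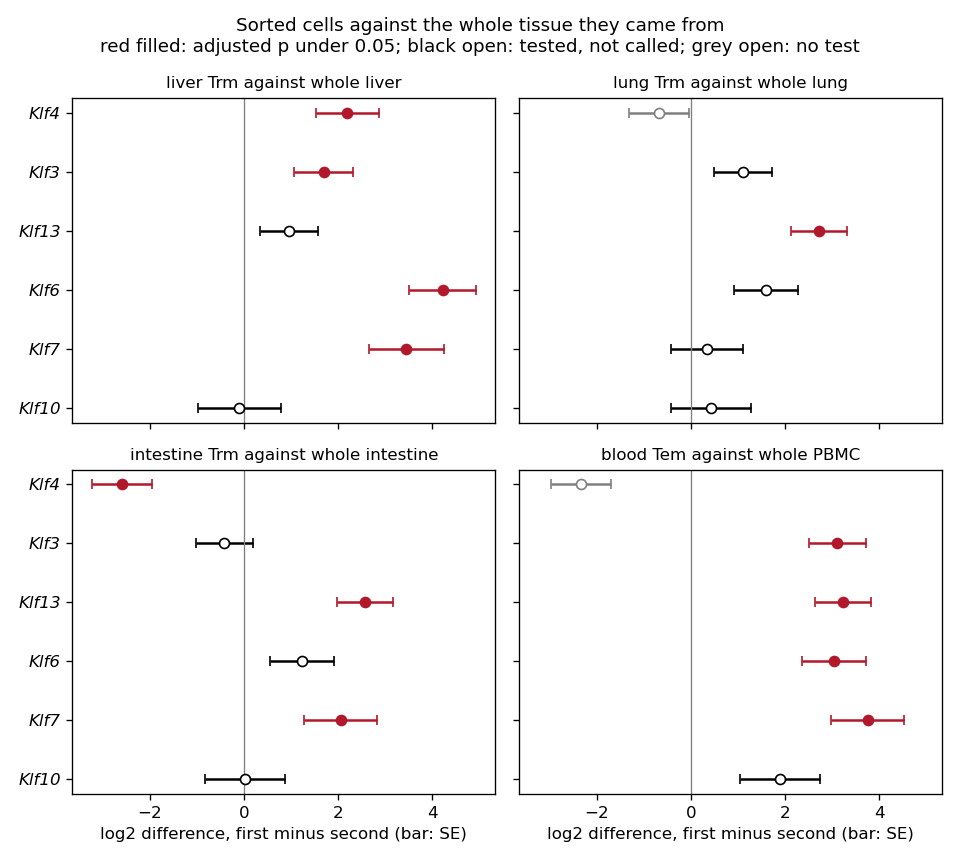
Log2 differences of the members between sorted cells and their own tissue or blood (horizontal axis, bars SE), with colours for called, tested and untested points as in the plot of sorted groups. Klf4 lies at -2.60 in intestine and 2.20 in liver, and Klf6 at 4.22 in liver.

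Among the unsorted tissues, Klf4 was higher in intestine and lung than in PBMC and read lower in liver. Against whole PBMC it was higher in whole intestine by 4.40 (SE 0.74, adjusted p = 1.2e-05) and in whole lung by 3.03 (SE 0.74, adjusted p = 0.00192), both still called without whole PBMC 1 (3.11 and 2.21). In whole liver it was lower (-2.42, SE 0.74, adjusted p = 0.0109), a call lost without whole PBMC 2 and under quantile normalization (-2.21). The size of that difference is not settled, since Klf4 was above background on 1 of 3 whole PBMC arrays and on no whole liver array. Counts were 1 of 6 members lower in whole liver (30.2% of genes called, 3.23% lower), 3 of 6 higher in whole lung (32.0%, 30.1% higher) and 3 of 6 higher in whole intestine (45.0%, 37.3% higher). Klf10, above background on no whole PBMC array, was at least 1.57-fold higher in whole lung (measured difference 2.94, SE 0.98, adjusted p = 0.0203) and at least 1.46-fold higher in whole intestine (2.83, SE 0.98, adjusted p = 0.0189). The Klf10 calls were lost without whole lung 1 or 3 or whole PBMC 3, and without whole PBMC 1 or whole intestine 3, and both with scaling over all probes (2.32 and 2.13). Klf7 was higher in whole lung by 3.21 (SE 0.89, adjusted p = 0.00587) and Klf6 in whole intestine by 2.03 (SE 0.79, adjusted p = 0.0364). Without whole PBMC 1 these were 2.00 and -0.32, neither called. The Klf6 call held with only 3 of 6 arrays left out in turn. It was also lost under quantile normalization, scaling over all probes, normexp and the deposited values (1.30 to 1.69).

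Beyond Klf4, the difference between organs in the contrast with whole tissue was called for Klf6 in intestine against liver (-2.99, SE 0.99, adjusted p = 0.0355). That makes 2 of 6 members, both lower, against 14.6% of genes called and 6.84% lower. The Klf6 call held with 9 of 17 arrays left out in turn. Arrays without which it was lost included liver Trm 1 and 2, intestine Trm 6, whole liver 1 and 3, and whole intestine 1 and 3. It was also lost with no filter. For lung against liver limma called 0 of 5 members, with 3 at an unadjusted p under 0.05 (16.0% of genes were called), and Klf7 stood at -3.10 (adjusted p = 0.0520). The Klf6 and Klf7 differences of that contrast were called under quantile normalization (-3.27 and -3.91). For intestine against lung it called 0 of 5, with 0 at an unadjusted p under 0.05 (22.1%).

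Ordered by mean on the all-array scale, Klf4 was highest in whole intestine (-1.73), then whole lung (-3.10), lung Trm (-3.78), intestine Trm (-4.33), whole PBMC (-6.13), liver Trm (-6.36), blood Tem (-8.46) and whole liver (-8.55). The step from intestine Trm to whole PBMC was called (1.80, adjusted p = 0.0225; 41.9% of genes were called in that comparison), the steps from whole intestine to whole lung and from whole PBMC to liver Trm were not, and the others have no test. Klf3, Klf7 and Klf13 were highest in blood Tem (-2.38, -1.63 and -4.74), Klf6 in intestine Trm (-0.68) and Klf10 in lung Trm (-4.91). The lowest means of Klf3, Klf6 and Klf7 were in whole liver. Klf4 in blood Tem and whole liver, Klf10 in whole PBMC, and Klf13 in whole lung, whole intestine and whole PBMC were above background on no array, so those groups have no order among themselves. Of 34 neighbouring pairs tested over the 6 genes, 1 was called.

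The genes whose levels followed each factor most closely over the 35 arrays were found among 10303 genes with a current symbol, as a description. For Klf4 they were Lyz1 (Pearson r = 0.861), a lysozyme gene that is also on the gut epithelial list, Sh3d21 (0.796), Zfp703 (0.776), Cdkn1a (0.774), the gene for the cell cycle inhibitor p21, and the chemokine gene Ccl6 (0.766). For Klf3 they were the interferon receptor gene Ifnar1 (0.926), Trim56 (0.910) and Setd1b (0.905), and for Klf13 Ankrd11 (0.927), Twf2 (0.924) and Dyrk2 (0.921). Klf6 was followed by Tnip1 (0.937), Rbm3 (0.937) and Rhog (0.936), Klf7 by Tecpr1 (0.920), Sfxn3 (0.916) and Piezo1 (0.915), and Klf10, least closely, by Hspa2 (0.717), Ggh (0.689) and Pdia3 (0.687). The arrays share group and scaling, so these values mix differences between tissues with those within them. Among the 15 pairs of members, r over the 8 group means ran from -0.51 for Klf4 with Klf13 to 0.91 for Klf6 with Klf7.

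Other genes of the family and its partners are given for context. Klf2 was well above background on every sorted array, at 1.46 ± 0.27 (SD, n = 5) in liver Trm, 1.01 ± 0.31 (n = 6) in lung Trm, 0.22 ± 0.52 (n = 6) in intestine Trm and 0.89 ± 0.47 (n = 6) in blood Tem, and its one called difference among sorted cells in these data was intestine below liver Trm (-1.23, SE 0.27, adjusted p = 0.00395). Klf5, a factor of proliferating epithelium, was above background on 4 of 6 intestine Trm, 1 of 6 lung Trm and no other sorted array. It entered the comparisons of sorted cells through intestine Trm alone, so no test is given for it. The counts that follow stand beside 40.3% of all genes called in liver Trm and 17.7% in intestine Trm against blood Tem. Of 5 tested cofactor genes, 1 was higher and 2 lower in liver Trm than in Tem, and 1 was lower in intestine Trm. The histone deacetylase gene Hdac1 was lower in both (-1.04, SE 0.27, and -0.86, SE 0.26), and Ctbp1, which encodes the Klf3 partner, in liver (-0.79, SE 0.31). Of 2 tested ubiquitin ligase genes, Itch was lower in liver Trm (at least 1.31-fold) and in intestine Trm (-1.98, SE 0.34). Of 2 tested Sp factor genes, which bind the same boxes, Sp2 was lower in liver Trm (-1.16, SE 0.38) and Sp1 in intestine Trm (-1.08, SE 0.31).

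Genes reported elsewhere as targets of the family moved in both directions: of 12 tested against blood Tem, 2 were higher and 4 lower in liver Trm, and 2 higher and 2 lower in intestine Trm. The liver count is near the 40.3% of all genes called there (25.4% lower), and 17.7% of all genes were called in intestine Trm (9.59% lower). Cdkn1a, a target of Klf4, was higher in liver Trm (2.24, SE 0.74, adjusted p = 0.0225) and intestine Trm (3.78, SE 0.71, adjusted p = 7.9e-04). Myc, which drives growth, was higher in intestine Trm (2.18, SE 0.58). Ccl5, the Klf13 target, was lower in liver Trm (-0.93, SE 0.34) and differed by -2.01 in lung Trm, the latter as a description. Lgals3, a gene that Klf3 represses, was lower in liver Trm (-2.26, SE 0.47). S1pr1, the egress receptor gene, was lower in intestine Trm (-1.79, SE 0.40).

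Most tested immediate early genes, the class that Klf4, Klf6 and Klf10 belong to, were called higher in liver and intestine Trm than in Tem. Of 20 tested, 14 were higher and 6 not called in liver Trm, and 13 were higher and 7 not called in intestine Trm, against 40.3% and 17.7% of all genes called; the median differences were 1.49 and 1.85, against -0.28 and -0.03 over all genes. Probes never above background were themselves higher than in blood Tem by a median of 1.30 in liver Trm and 0.70 in intestine Trm. Under the other scalings the counts of higher genes were 10 to 15 and 11 to 13. The median in lung Trm was 1.43, as a description. Fosb was higher by 3.44 (SE 0.70) in liver and 6.62 (SE 0.67) in intestine Trm, Fos by 4.00 (SE 0.40) in intestine Trm, and Egr2 at least 3.06-fold in liver Trm. The summed level of the list was 2.13 to 6.44 times the reference in liver Trm, 3.79 to 5.55 in lung Trm, 5.09 to 9.28 in intestine Trm and 2.13 to 3.77 in blood Tem. Its median was close in liver Trm (3.03) and blood Tem (2.92), against 4.92 in lung Trm and 5.92 in intestine Trm. In the whole organs, dissociated but not sorted, the summed level was 0.736 to 1.46. Of 9 glucocorticoid-responsive genes tested, 4 were higher and 1 lower in liver Trm and 5 were higher in intestine Trm, among them Mt2 (4.93, SE 0.94, and 5.23, SE 0.90), while Fkbp5 was lower in liver Trm (-2.45, SE 0.46). In whole lung and whole intestine, where Klf4 was high, the immediate early sum was below that of every Trm array. The glucocorticoid-responsive sum was 1.60 to 2.05 in whole lung and 1.13 to 3.18 in whole intestine, overlapping lung Trm (1.47 to 2.44), intestine Trm (1.25 to 2.84) and blood Tem (1.15 to 1.89). The part of both lists in the Klf4 level was not tested.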

How the data were processed

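The authors deposited scanner files of 35 arrays, whose values are an intensity per spot that Feature Extraction had background-subtracted (version 11.0.1.1, per the file headers, but 10.7, with Partek, per the submitters' processing notes). The deposited flags of each spot, a yes or no for well above background, were used as given. The deposited table of log2 values matched a quantile normalization of these intensities (largest median absolute difference 0.000592) and was an alternative only. Probes were named through a RefSeq table for GRCm38.p6 (27508 of 39429 probes).

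Log2 intensity was scaled by subtracting each array's 75th percentile over probes well above background on all arrays of a fit (4041 probes for the 23 sorted arrays, 1341 for all 35). A probe was kept if it was well above background on 3 or more arrays of any group, with the brightest probe per gene. limma 3.58.1 in R 4.3.3 was fitted with 1 mean per group, two-sided, with Benjamini-Hochberg adjustment over all genes. The fit was tested on simulated data. For intestine against liver Trm it recovered 16 of 100 genes changed by 1 log2 unit and 66 of 100 changed by 2. For liver Trm against whole liver it recovered 2 of 100 and 29 of 100. A difference that was not called is therefore not shown to be absent. The number of arrays limits the precision. Named were all members, Klf2, and at most 4 called genes per direction of each list; marker lists and alternatives are given where they bear on a member. The members and lists were chosen with earlier results of these data known. A gene of the target list is not reported here. Leaving out liver Trm 1 and 2, or whole liver 2 and whole PBMC 1, and slide as a random block were chosen after seeing the data.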

Additional observations from a re-analysis of the deposited data

Results flagged for a closer look

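Klf6 on blood Tem 3 (-1.42 on the sorted-cell scale, which the check used) stood below the other 5 Tem arrays (-0.55 to -0.08). On the all-array scale it stood less apart, at -1.25 against -0.99 to -0.54. Klf7 on intestine Trm 2 (0.0014) stood above the other 5 intestine Trm arrays (-2.12 to -1.43), and the same array had the most fibroblast and smooth muscle signal of its group. Of 28 sets of a member in a group that were checked, these 2 held such an array; chance gives about 5%.

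The difference between organs in sorted cells against whole tissue was called for Klf4 (-4.79) and Klf6 (-2.99), both for intestine relative to liver; the size for Klf4 is not settled, since no whole liver array was above background.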

How the results depend on the processing

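Of 996 values for single members under settings that changed the processing or left out more than 1 array, 909 were counted as the same. That count takes in called differences that kept direction and call, and uncalled ones that stayed uncalled or changed sign. It also takes in values without a test that shifted by less than their SD among arrays. Of the rest, 36 lost the call, 36 gained it, 14 without a test moved and 1 reversed (Klf6, whole intestine against whole PBMC, -0.32 without whole PBMC 1). The cause of these changes was not tested. Counts of members called changed as follows. Quantile normalization and the deposited values each gave 1 for liver Trm against blood Tem, 1 for lung against liver Trm, 0 for whole liver against whole PBMC, 2 for the lung against liver interaction and 2 neighbouring pairs in the order of levels. Scaling over all probes gave 2 for lung against liver Trm, for lung Trm against whole lung, for whole liver against whole PBMC and for the lung against liver interaction, and 1 for whole intestine against whole PBMC. Normexp gave 0 for liver Trm against blood Tem, 1 for intestine Trm against blood Tem, 0 for intestine against liver Trm and 2 for lung Trm against whole lung. No filter gave 1 for intestine Trm against blood Tem, 2 for lung against liver Trm, 0 for intestine against liver and against lung Trm, 2 for lung Trm against whole lung, and 1 for both interactions of intestine. A filter requiring every array of a group, and the mean over probes, each gave 1 for the lung against liver interaction. Without liver Trm 3 and blood Tem 3 the counts were 0 for liver Trm and 1 for intestine Trm against blood Tem and 0 for intestine against liver Trm. Without whole liver 2 and whole PBMC 1 they were 1 for blood Tem and 1 for whole intestine against whole PBMC, 2 for whole liver against whole PBMC, and 3 neighbouring pairs. Without liver Trm 1 and 2 they were 3 for lung against liver Trm, 2 for intestine against liver Trm, 2 for liver Trm against whole liver, 1 for the intestine against liver interaction, and 2 neighbouring pairs.

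With each array left out in turn, counts ran from 0 to 2 for liver Trm and 1 to 2 for intestine Trm against blood Tem, 0 to 1 for each comparison between Trm populations, 3 to 4 for liver, 1 to 2 for lung and 2 to 3 for intestine Trm against whole organ, and 1 to 5 for blood Tem against whole PBMC. They ran from 0 to 2 for whole liver, 2 to 5 for whole lung and 1 to 4 for whole intestine against whole PBMC, 0 to 1 and 1 to 2 for the interactions of lung and intestine with liver, 0 to 0 for intestine with lung, and 0 to 2 for neighbouring pairs. The median member difference of lung Trm from blood Tem ran from -0.04 to 0.27 around 0.12. Klf6 in whole intestine against whole PBMC ran from -0.32, without whole PBMC 1, to 3.11.

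Same-numbered arrays, which share a slide, had a median correlation of -0.0079 in their deviations from the group means (33 pairs, 7 above 0.1). For arrays of different number and group it was 0.0022 (165 pairs, 44 above 0.1). These values cannot settle whether same-numbered arrays come from the same animals. With array number as a block in the fit, the counts were 1 for intestine Trm against blood Tem, 1 for lung against liver Trm and 0 for intestine against lung Trm. The calls lost were Klf13 in intestine Trm against blood Tem and Klf3 in intestine against lung Trm.

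Scaling moved the whole distribution: the median over all genes for liver Trm against blood Tem was -0.28, and -0.75 to 0.18 under the other scalings, and the share of called genes that were higher was 37.0% against 19.8% to 66.4%. For lung against liver Trm that share was 52.1% against 10.5% to 82.3%, and for whole liver against whole PBMC 89.3% against 52.6% to 85.4%. Dim probes limit Klf4 in blood Tem and whole liver, Klf13 in whole lung, intestine and PBMC, Klf10 in whole PBMC and Klf9 throughout to bounds or no value.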
